A study of Mus musculus with 2 samples.

Results

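The cells described here are barcodes of mouse aorta that carried RNA of a set of 6 genes, among them Chil3, F10, Cxcl3, Ly6i and Mmp19, and they are called Chil3-set cells below. They were chosen by a rule on their own counts. A barcode had to hold at least 1000 UMIs (unique molecular identifiers, each of which marks 1 captured RNA molecule) with at most 10% of them mitochondrial, and at least 1 UMI in 4 or more of 9 macrophage genes (C1qa, C1qb, C1qc, Csf1r, Cd68, Fcer1g, Adgre1, Ms4a7 and Lyz2). These barcodes are called gated. Of the gated barcodes, those were taken that had a UMI in at least 2 genes of the Chil3 set, and in more genes of it than of a Trem2 set (Trem2, Gpnmb, Zmynd15, Itgax, Atp6v0d2 and Syngr1) and of an Mrc1 set (Mrc1, Ccl8, Ccl12, Negr1, Clec4b1 and Fcgr4). The rule found 805 Chil3-set cells among 28040 gated and 49076 kept barcodes, 224 in the WT library and 581 in the EC-iCD45KO library. The gated barcodes led by the Trem2 set or the Mrc1 set by the same kind of rule, called foamy Trem2 and resident-like, serve as comparisons.

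The series asks about CD45, the leukocyte phosphatase encoded by Ptprc, in endothelial cells during atherosclerosis. Both groups were ApoE-/- mice on the C57BL/6 background that ate a Western diet, a model in which plaques form in the aorta. For WT the labels name no other deletion, while EC-iCD45KO mice had lost CD45 in endothelial cells through a tamoxifen-inducible system. Aortic cells were enriched with anti-CD31 beads and 1 10x Genomics library was made per group. The Cre line, the age and sex of the animals, the number pooled per library and any tamoxifen given to the WT group are not given in the sources used here. With 1 library a group, no difference between the groups has a replicate check, no test was run, and genotype cannot be told apart from the preparation of the libraries. All intervals below are 95% intervals for counting error only.

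In plaques, Ly6C-high monocytes that enter from the blood turn into macrophages, and on the way they pass through states that share genes with both. Chil3 encodes a secreted chitinase-like lectin also called Ym1. It is best known as a product of macrophages stimulated with IL-4, and it is also made by young monocyte-derived cells in injured or inflamed tissue. F10 encodes the zymogen of coagulation factor X, Cxcl3 a chemokine that attracts neutrophils, Ly6i a member of the Ly6 surface protein family, and Mmp19 a matrix metalloproteinase. Whether the cells described here came from monocytes was not measured.

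The libraries held 39849 barcodes in WT and 30278 in EC-iCD45KO, each with at least 500 UMIs, of which 29659 and 19417 were kept. The gate took 44.9% of the kept barcodes in WT and 75.8% in EC-iCD45KO, so it is wide, and the gated barcodes outside the Chil3 set held 4126 CPM (UMIs per 1000000 UMIs) of B and plasma cell markers in WT and 259 in EC-iCD45KO. The Chil3-set cells were deeper than the gated barcodes as a whole, with a median of 3976.5 UMIs in WT and 5270 in EC-iCD45KO against 1885 and 2324. The libraries shared 340 barcode sequences, 1 of which belonged to Chil3-set cells in both. Ptprc RNA was at 705 CPM in WT Chil3-set cells and at 376 in those of EC-iCD45KO, so that EC-iCD45KO over WT was -0.91 (-1.04 to -0.77) on the log2 scale. It was -1.04 in foamy Trem2 and -0.72 in resident-like barcodes, and the deleted exons are not given, so Ptprc RNA is no check of the deletion.

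Chil3 and F10 were the genes of the set found most often together in EC-iCD45KO. These values chose the cells and are a description only. F10 had a UMI in 68.8% of the WT cells and 72.6% of the EC-iCD45KO cells, and Chil3 in 45.5% and 52.7%. Mmp19 was found in 41.5% and 54.0%, and Cxcl3 in 19.2% and 27.5%. Ly6i was found more often in WT, in 49.6% of cells, than in EC-iCD45KO, in 24.3%. F10 and Chil3 shared 61 WT cells (27.2%) and 219 EC-iCD45KO cells (37.7%).

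The level of the set genes in the same cells was far above that in other gated barcodes, as the rule requires. Chil3 (ENSMUSG00000040809), at chromosome 3 positions 106147554 to 106167564 on the minus strand of GRCm38, stood at 325 CPM in the WT cells and 401 in the EC-iCD45KO cells, against 7.67 and 15.5 in other gated barcodes. F10 (ENSMUSG00000031444), at chromosome 8 positions 13037308 to 13056676 on the plus strand, stood at 324 and 357 CPM. Ly6i was at a higher level in WT, unlike the other genes given here. Cxcl3, on chromosome 5 at positions 90786103 to 90789600 of the plus strand, had 243 and 526 CPM. Ly6i, on chromosome 15 at positions 74979534 to 74983430 of the minus strand, had 314 and 67.0, and Mmp19, on chromosome 10 at positions 128790910 to 128800824 of the plus strand, had 154 and 204. A single WT cell held 34.2% of the Cxcl3 UMIs, so its WT level rests on few cells. Mmp19 overlaps Gm47093 and Tmem198b, and the counting of reads that fall in both is not given in the sources used here.

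**Figure D1:**
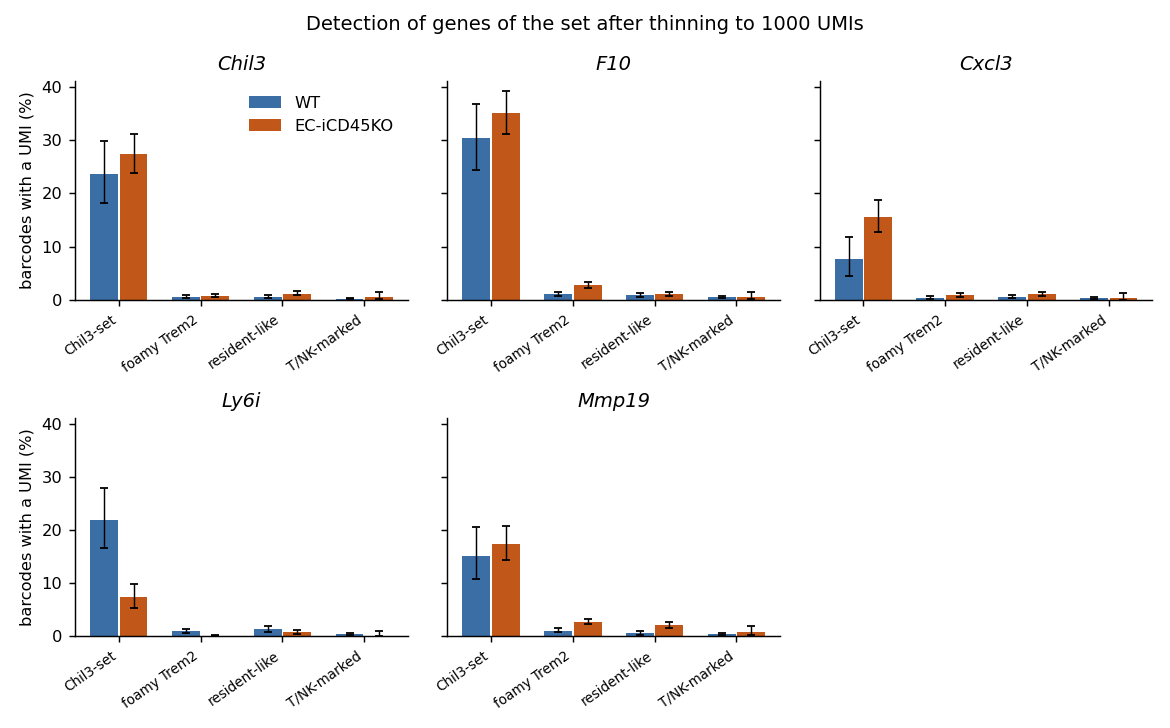
Share of barcodes with at least 1 UMI of 5 genes of the Chil3 set (y axis, percent) after each barcode was thinned to 1000 UMIs, in Chil3-set, foamy Trem2, resident-like and T/NK-marked barcodes (x axis) of the WT and EC-iCD45KO libraries. Bars carry exact 95% binomial intervals, and the Chil3-set bars are high because the rule chose those cells by these genes. Chil3 reached 23.7% in WT and 27.4% in EC-iCD45KO Chil3-set cells and at most 1.16% in the other classes.

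Each gene plotted was rare in the other classes. After each barcode was thinned to 1000 UMIs, Chil3 had a UMI in 23.7% of the WT and 27.4% of the EC-iCD45KO Chil3-set cells. In barcodes with at least 3 T/NK cell markers, which should lack the gene, the shares were 0.193% and 0.508%, at median depths of 2215 and 2914 UMIs. Foamy Trem2 barcodes had 0.503% and 0.745%, and resident-like barcodes 0.544% and 1.16%. In the plot of detection the other genes are also highest in the Chil3-set cells of each library. Outside these cells F10 and Mmp19 were found most often in EC-iCD45KO foamy Trem2 barcodes, at 2.71% and 2.77%, and Ly6i in WT resident-like barcodes, at 1.34%.

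Chil3-set cells were 1.68% of the gated barcodes in WT (224 of 13315, 1.47% to 1.92%) and 3.95% in EC-iCD45KO (581 of 14725, 3.64% to 4.27%). The difference was 2.26 percentage points (1.88 to 2.65). Since the gate took different shares of the libraries, the share was also taken over the 3 classes led by a gene set, where it was 4.45% in WT and 7.53% in EC-iCD45KO. When the rule was applied to barcodes thinned to 1000 UMIs, 48 of 10288 (0.467%) and 134 of 12393 (1.08%) met it. The rule found fewer cells at equal depth, and EC-iCD45KO still held the larger share. Without barcodes marked for other cell types the shares were closer, at 4.43% in WT and 5.74% in EC-iCD45KO. The difference was then 1.31 points (0.26 to 2.28). That filter left 109 of the 224 WT and 341 of the 581 EC-iCD45KO Chil3-set cells. It left 2463 and 5943 gated barcodes. Just inside the threshold were 146 WT and 310 EC-iCD45KO cells with 2 genes of the set. Just outside it were 282 and 307 gated barcodes with 1 gene of the set and none of the other sets, and 102 and 422 with 2 or more genes but no lead over another set.

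Compared with the other classes the cells held more RNA of classical monocytes and less of mature macrophages. The 8 classical monocyte markers (among them Ly6c2, Ccr2, Plac8, Vcan, F13a1, Hp and Ms4a4c) summed to 4514 CPM in WT and 2456 in EC-iCD45KO Chil3-set cells, against 266 and 229 in foamy Trem2 and 770.4 and 671 in resident-like barcodes. None of the 8 was at 0. The 9 markers of macrophages (Adgre1, Mertk, Fcgr1, Csf1r, C1qa, C1qb, C1qc, Cd68 and Ms4a7) ran the other way, with sums of 4094 and 3525 CPM against 16803 and 17506 in foamy Trem2 barcodes. C1qa, a complement subunit that tissue macrophages make in quantity, had a UMI in 50.4% and 55.1% of the Chil3-set cells and was at 840.2 and 661 CPM, against 4584 and 4741 in foamy Trem2 barcodes. Since 7 of those 9 genes were part of the gate, these levels are a description. With most monocyte markers high and complement RNA low, the cells are called by their gene set here and not by a cell type. Of the 9 alveolar macrophage markers 6 were at 0 in WT and 4 in EC-iCD45KO, and all 4 mast cell markers were at 0 in both.

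Outside the genes of the rule, 131 of 5783 genes (2.27%) were at least 2-fold higher in Chil3-set cells than in other gated barcodes in both libraries, and 163 (2.82%) at least 2-fold lower. Genes entered with a mean of at least 20 CPM in each library. The genes furthest above the other gated barcodes included Ly6c2, Plac8 and Vcan of the monocyte list and Vegfa of the low-oxygen list. Ly6c2, the antigen that marks classical monocytes in mouse blood, was at 843 CPM in WT and 272 in EC-iCD45KO against 92.0 and 31.5. Its log2 ratios were 3.20 (3.09 to 3.30) and 3.11 (2.99 to 3.23). T/NK-marked barcodes held it too. After thinning it had a UMI in 9.55% of them in WT and 11.3% in EC-iCD45KO. In Chil3-set cells the shares were 30.4% and 14.3%, so those of EC-iCD45KO were close. Plac8, a small cysteine-rich protein of monocytes, was at 1886 and 824 CPM against 172 and 109. Ifitm6, of the interferon-induced transmembrane family, had log2 ratios of 3.79 and 2.89. Both monocyte genes were far above the other gated barcodes in both libraries, and the levels in EC-iCD45KO were the lower ones on each side.

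Thbs1 and Vcan, which encode proteins of the matrix, were among the 12 leading genes. Thbs1 encodes thrombospondin-1, which binds CD36 and activates latent TGF-beta, and stood at 477 and 677 CPM against 66.3 and 89.0, log2 ratios of 2.85 (2.70 to 2.99) and 2.93 (2.85 to 3.0). Vcan encodes versican, a proteoglycan of the provisional matrix, and had log2 ratios of 3.10 (2.84 to 3.35) and 2.67 (2.54 to 2.79). Sensors of microbes were represented by Clec4e, the receptor Mincle, with 247 and 348 CPM against 32.7 and 80.0. Pglyrp1, a secreted peptidoglycan recognition protein, had log2 ratios of 2.11 and 2.69. Vegfa, the growth factor of blood vessels that low oxygen induces, had log2 ratios of 2.81 (2.49 to 3.11) and 2.45 (2.32 to 2.59), and Slc16a3, the lactate exporter MCT4, 2.19 and 1.95. Gsr, glutathione reductase, stood at 293 and 214 CPM against 41.6 and 56.1. Mcemp1, a membrane protein of mast cells and myeloid cells, and Sirpb1c, of the signal-regulatory protein family, completed the 12 genes furthest above.

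**Figure D2:**
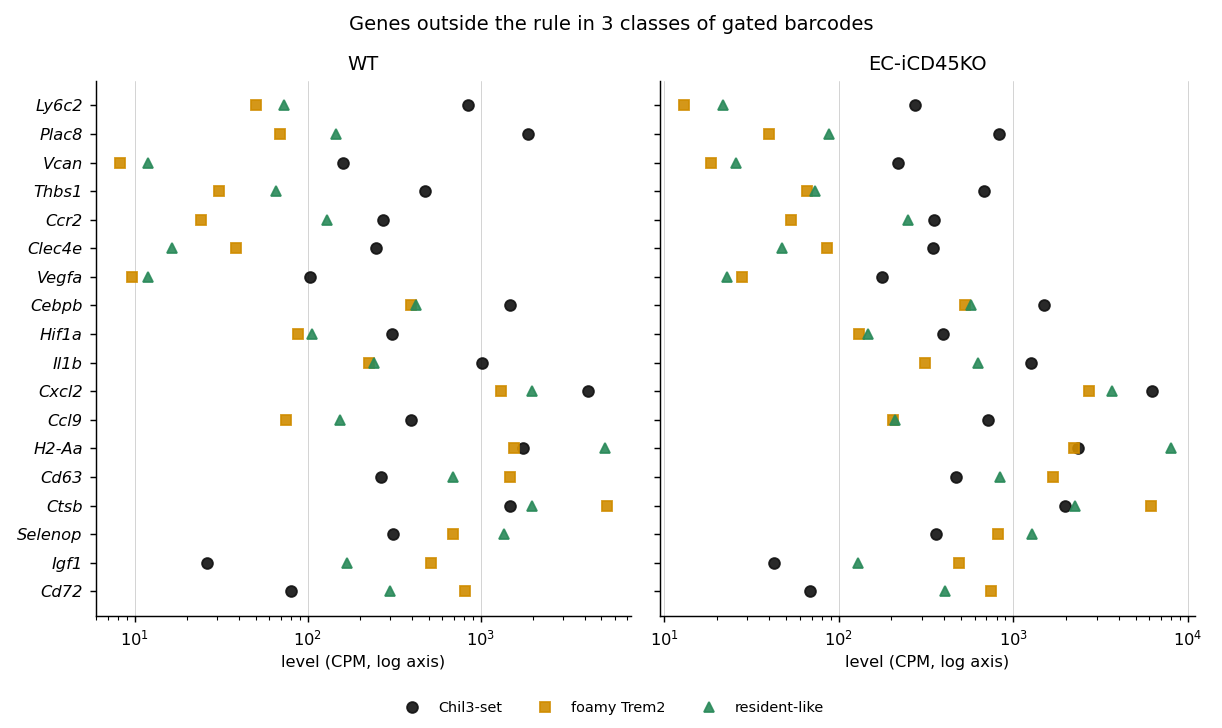
Level of 18 genes outside the rule (x axis, CPM on a log axis) in Chil3-set (circles), foamy Trem2 (squares) and resident-like (triangles) barcodes, with the WT library at left and the EC-iCD45KO library at right. Ly6c2, Plac8, Vcan and Thbs1 were highest in Chil3-set cells in both libraries, and Igf1 and Cd72 lowest, with Ly6c2 at 843 CPM in WT and 272 in EC-iCD45KO Chil3-set cells.

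The monocyte list as a whole lay high. Of its 14 genes, all of which passed the level minimum, 10 were at least 2-fold higher in both libraries and 0 lower, where 2.27% of all genes were higher and 2.82% lower. The median log2 ratio was 2.19 in WT and 1.80 in EC-iCD45KO, against -0.10 and -0.08 over all genes. Ccr2, the receptor through which monocytes follow CCL2 into tissue, was at 274 and 349 CPM. Resident-like barcodes also carried Ccr2, at 129 and 248 CPM, and foamy Trem2 barcodes had 24.3 and 53.3. F13a1, the A chain of coagulation factor XIII, stood at 219 and 245 CPM, and in WT resident-like barcodes were as high, at 229.

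Of 12 receptor genes that passed the minimum 3 were at least 2-fold higher in both libraries and 0 lower, against 2.27% and 2.82% of all genes. They were Ccr2, Ccr1, a receptor for CCL3, CCL5 and related chemokines, and Csf2rb, the shared beta chain of the GM-CSF receptor. Ccr1 was at 180.2 and 251 CPM against 26.8 and 67.7, and Csf2rb had log2 ratios of 1.65 and 1.12. Cx3cr1, the fractalkine receptor of patrolling monocytes and many tissue macrophages, was lower in the Chil3-set cells, with -0.51 and -0.55. Of 16 transcription factor genes 3 were at least 2-fold higher in both and 0 lower, beside the same shares of all genes. Cebpb, a factor of monocytes and of the response to cytokines, was at 1474 and 1498 CPM against 389 and 553. Hif1a, the oxygen-regulated subunit of HIF-1, had log2 ratios of 1.42 (1.25 to 1.59) and 1.29 (1.20 to 1.37), and Nfil3 2.13 and 1.51.

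Genes of glycolysis and low oxygen had a median above that of all genes but under 2-fold. Of 14 that passed the minimum, 4 were at least 2-fold higher in both libraries and 0 lower, where 2.27% and 2.82% of all genes were. The 4 were Vegfa, the glucose transporter gene Slc2a1, and the glycolytic enzyme genes Eno1 and Pkm. The list's median was 0.67 in WT and 0.72 in EC-iCD45KO. Slc2a1 had log2 ratios of 1.08 and 1.13, Eno1 of 1.22 and 1.22, and Pkm of 1.24 and 1.01. The remaining enzymes lay closer to the other gated barcodes, for example Ldha, lactate dehydrogenase A, with 0.58 and 0.61.

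Among the genes of arginine use described here, Ass1, argininosuccinate synthase, which rebuilds arginine from citrulline, was at 190.3 and 139.5 CPM, log2 ratios to other gated barcodes of 2.19 (1.97 to 2.41) and 1.75 (1.61 to 1.90). The list of arginine and polyamine genes went both ways, with 5 higher and 5 lower in WT and 4 higher and 6 lower in EC-iCD45KO. Its median log2 ratio was 0.12 in WT and -0.14 in EC-iCD45KO, against -0.098 and -0.082 over all genes. The IL-4 response genes outside the rule were split, and most were under the level minimum. Of the 4 that passed the minimum, Tgm2, transglutaminase 2, was at least 2-fold higher in both libraries and Mgl2, a lectin of IL-4 stimulated macrophages, at least 2-fold lower, where 2.27% and 2.82% of all genes were. Tgm2 had log2 ratios of 1.08 and 1.05, and Mgl2 of -1.49 and -2.30.

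Of 14 inflammatory genes that passed the minimum, 4 were at least 2-fold higher in both libraries and 0 lower, against 2.27% and 2.82% of all genes. Il1b, the cytokine interleukin-1 beta, was at 1012 and 1252 CPM against 252 and 498. Il1rn, the antagonist of its receptor, was higher along with it, with log2 ratios of 2.07 and 1.52. Ptgs2, the cyclooxygenase of inflammation, had 1.67 and 1.5, and Clec4e was the remaining gene. Tnf did not differ by more than counting error, with 0.04 (-0.18 to 0.24) and -0.02 (-0.12 to 0.09).

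Among 12 chemokine genes 3 were at least 2-fold higher in both libraries and 0 lower, where the shares of all genes were 2.27% and 2.82%. Cxcl2, a neutrophil attractant and neighbour in function of Cxcl3, was at 4196 and 6207 CPM against 1394 and 2952. Ccl9 stood at 396 and 715 CPM, log2 ratios of 2.12 and 1.85, and Ccl6 at 572 and 1287, log2 ratios of 1.46 and 1.72. Ccl4 was lower in the Chil3-set cells, with -0.99 and -1.24.

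Coagulation genes beside F10 were split. Of 6 that passed the minimum, F13a1, S100a10 and Plaur were at least 2-fold higher in both libraries and 1 at least 2-fold lower, against 2.27% and 2.82% of all genes. Plaur, the receptor of urokinase, was at 364 and 421 CPM against 110.0 and 126, log2 ratios of 1.72 (1.57 to 1.88) and 1.74 (1.65 to 1.82). F5 and F7, whose products act beside factor X in the clotting cascade, were rare, at 14 and 19.7 CPM for F5 and 5.01 and 18.5 CPM for F7. Among 8 protease and inhibitor genes Adam8, a membrane metalloprotease of leukocytes, was at least 2-fold higher, with 1.49 and 1.61, while the inhibitor genes Timp2 and Timp3 were at least 2-fold lower, beside the same shares of all genes. Timp2 had -1.87 and -1.64.

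Genes of foam cells and of resident macrophages had list medians below that of all genes, at -0.62 in both libraries for lipid and foam cell genes and at -1.20 in WT and -0.94 in EC-iCD45KO for resident genes. The rule itself kept out cells led by the Trem2 and Mrc1 sets. Of 14 lipid and foam cell genes 0 were at least 2-fold higher in both libraries and 3 lower, where 2.27% and 2.82% of all genes were. The 3 were Lpl, lipoprotein lipase, Lipa, the lysosomal acid lipase, and Cd63. Cd63, a tetraspanin of lysosomes, was at 266 and 468 CPM against 894 and 1167. Plin2, which coats lipid droplets, was higher in the Chil3-set cells, with log2 ratios of 1.10 (0.98 to 1.22) and 0.81 (0.76 to 0.87). Of 6 resident macrophage genes Folr2, a folate receptor, and Selenop, selenoprotein P, were at least 2-fold lower in both, against the same 2.82% of all genes, with Selenop at 311 and 362 CPM against 713 and 843.

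The 12 genes furthest below the other gated barcodes were Igf1, Cd72, Tanc2, Hpgds, Slamf9, Ckb, Pmp22, Syne1, Apbb2, Blnk, Serpinb6a and Ctla2a, the last of which stood at 0.15 in WT when 7 of the 9 macrophage genes were required. Igf1, a growth factor of mature macrophages, was at 26.0 and 42.5 CPM against 275 and 278, log2 ratios of -3.40 (-4.02 to -2.85) and -2.71 (-2.96 to -2.47). Cd72 had -2.53 (-2.87 to -2.21) and -2.82 (-3.01 to -2.63), and Hpgds, a prostaglandin D synthase, -2.26 and -2.52. MHC class II genes, which present antigen to CD4 T cells, had a list median of -0.49 in WT and -0.82 in EC-iCD45KO and 0 of 7 past 2-fold in both libraries, with 1 of 7 at least 2-fold lower in EC-iCD45KO alone, where 7.84% of all genes were. H2-Aa was at 1752 and 2331 CPM, close to foamy Trem2 barcodes at 1558 and 2221 and below resident-like barcodes at 5274 and 7933. Mki67, a marker of dividing cells, was low, at 20.0 and 14.3 CPM. Of 11 genes of the early response to stress and cell isolation, 0 were 2-fold apart in both libraries. Of all genes 2.27% were higher and 2.82% lower in both, so 0 of 11 lies near those shares.

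Because the gate is wide, the comparison was repeated against foamy Trem2 and resident-like barcodes alone. Then 159 of 5717 genes (2.78%) were at least 2-fold higher in Chil3-set cells in both libraries and 126 (2.2%) lower. Of the 14 monocyte genes 11 were higher and 0 lower. The lists of glycolysis, inflammation, chemokines and receptors had 3, 4, 3 and 4 genes higher in turn, and 1 chemokine gene was at least 2-fold lower. When the rule was applied after thinning, which left 48 WT cells, the ratio to other gated barcodes came under 2-fold in 1 or both libraries for Ccr2, F13a1, Slc2a1, Pkm, Tgm2, Ccl6, Cd63, Lpl, Lipa, Selenop and Timp2.

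Between the libraries, 137 of 5959 genes (2.3%) were at least 2-fold higher in EC-iCD45KO than in WT Chil3-set cells and 191 (3.21%) at least 2-fold lower. In other gated barcodes these were 78 of 6412 genes (1.22%) and 153 (2.39%). The group with the most genes apart was that of the interferon-response genes, which are induced through the type I interferon receptor. Of the 13 listed, 12 were at least 2-fold lower in EC-iCD45KO Chil3-set cells, where 3.21% of all genes were, and the remaining gene, Ifi204, had a log2 ratio of -0.86 (-1.07 to -0.64). The median was -2.31, against -0.03 over all genes.

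Isg15, a ubiquitin-like protein that is attached to other proteins after interferon, was at 1065 CPM in WT and 187 in EC-iCD45KO Chil3-set cells. Its log2 ratio was -2.51 (-2.66 to -2.37). Ifit3, of a family that binds viral RNA, was at 264 and 10.3 CPM, a log2 ratio of -4.68 (-5.24 to -4.16), and Ifit2 at 140.2 and 11.5, a log2 ratio of -3.60 (-4.16 to -3.08). Irf7, the transcription factor that amplifies interferon production, was at 485 and 98.3 CPM, a log2 ratio of -2.30 (-2.51 to -2.10). The antiviral gene Rsad2, which encodes viperin, was at 265 and 37.9 CPM. In all of these the WT Chil3-set cells held the high level. In EC-iCD45KO Isg15 lay between foamy Trem2 barcodes, at 122 CPM, and resident-like barcodes, at 215, and Ifit3 lay below both, which held 24.1 and 36.6.

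The ratios were smaller in the foamy Trem2 and resident-like classes. In foamy Trem2 barcodes Isg15 had a log2 ratio of -0.37 (-0.46 to -0.29) and Ifit3 of -0.76 (-0.94 to -0.58), and in resident-like barcodes -0.52 (-0.60 to -0.44) and -1.10 (-1.28 to -0.93). The list medians were -0.31 in foamy Trem2 and -0.44 in resident-like barcodes. Seen within each library, all 13 genes were at least 2-fold higher in Chil3-set cells than in other gated barcodes in WT, with a median of 2.04, and 0 of 13 in EC-iCD45KO, where 4 of 13 were lower, 2 of them at least 2-fold, with a median of 0.27. Among all genes at a mean level of 5 CPM or more, 5.6% were 2-fold higher in WT and 2.8% in EC-iCD45KO, where 7.84% were 2-fold lower. In WT cells found after thinning Ifit3, Ifit2 and Rsad2 were under 2-fold above other gated barcodes, at 0.81, 0.91 and 0.41. This difference between classes was not tested, since each group had 1 library.

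**Figure D3:**
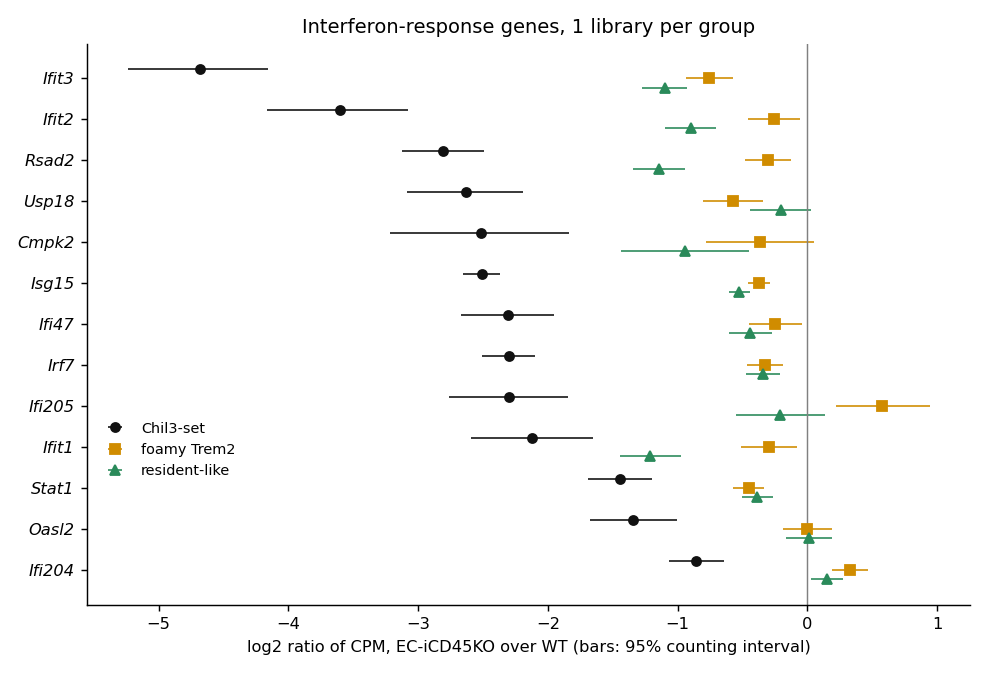
Log2 ratio of CPM, EC-iCD45KO over WT (x axis), of the 13 interferon-response genes (y axis) in Chil3-set (circles), foamy Trem2 (squares) and resident-like (triangles) barcodes, with 95% counting intervals as bars. The Chil3-set cells lie furthest to the left for each gene, from -4.68 for Ifit3 to -0.86 for Ifi204.

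Letters upstream of 3 of these genes and of Chil3 are shown because all 4 hold the core of the element bound by interferon-activated factors, which was looked for after the result was seen. They are the 250 bases before the start of transcription, 5′ to 3′ on the strand of the gene, from RefSeq on GRCm38.p6, and capitals mark GAAANNGAA on either strand. Isg15 lies at chr4:156200819-156201068 on the minus strand, Ifit3 at chr19:34583279-34583528 and Ifit1 at chr19:34640639-34640888 on the plus strand, and Chil3 at chr3:106167565-106167814 on the minus strand.
Isg15: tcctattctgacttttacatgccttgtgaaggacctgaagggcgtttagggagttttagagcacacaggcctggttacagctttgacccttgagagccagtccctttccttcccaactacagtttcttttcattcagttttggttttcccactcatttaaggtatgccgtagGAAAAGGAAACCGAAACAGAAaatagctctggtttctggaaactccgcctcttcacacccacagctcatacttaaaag
Ifit3: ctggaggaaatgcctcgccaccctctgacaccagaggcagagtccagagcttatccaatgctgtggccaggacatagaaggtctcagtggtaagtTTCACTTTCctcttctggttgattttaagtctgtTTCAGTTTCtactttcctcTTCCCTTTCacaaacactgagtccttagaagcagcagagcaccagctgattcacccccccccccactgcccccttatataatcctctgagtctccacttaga
Ifit1: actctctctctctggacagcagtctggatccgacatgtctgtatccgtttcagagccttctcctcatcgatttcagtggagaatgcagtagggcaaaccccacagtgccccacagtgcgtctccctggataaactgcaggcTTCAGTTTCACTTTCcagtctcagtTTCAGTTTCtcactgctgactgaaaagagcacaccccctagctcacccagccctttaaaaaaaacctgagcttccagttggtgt
Chil3: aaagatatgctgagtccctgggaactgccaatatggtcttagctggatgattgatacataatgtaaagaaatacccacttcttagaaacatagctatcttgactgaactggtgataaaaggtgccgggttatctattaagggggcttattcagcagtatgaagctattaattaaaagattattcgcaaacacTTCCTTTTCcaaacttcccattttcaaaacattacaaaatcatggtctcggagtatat

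In Isg15 3 overlapping matches fill bases -78 to -58 before the start. In Ifit3 3 separate matches lie between bases -155 and -94, and in Ifit1 3 lie between -109 and -76, the first 2 of which overlap. Chil3 holds 1 match, at bases -58 to -50. Over windows from 250 bases before to 50 after the start, 8.56% of 32851 promoters hold a match. Among the 10 interferon-response genes with a promoter there, 5 do (Ifi205, Ifit1, Ifit3, Isg15 and Rsad2), and of the 3 Chil3-set genes with one (Chil3, F10 and Cxcl3) Chil3 does. The palindrome TTGNNCAA, the core of a C/EBP site, was found in 6.40% of all promoters, in 1 of the 10 and in 0 of the 3. A match is a run of letters and not a measured binding site.

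The interferon genes were also more often found together in 1 WT cell. After thinning to 1000 UMIs, 3 or more of the 13 genes had a UMI in 60 of 224 WT Chil3-set cells (26.8%) and in 20 of 581 EC-iCD45KO cells (3.44%), a difference of -23.3 percentage points (-29.6 to -17.7). The shares were 4.56% and 2.79% in foamy Trem2 barcodes and 7.32% and 5.48% in resident-like barcodes. Endothelial-marked barcodes, with at least 3 endothelial markers, also differed between the libraries, at 14.3% in WT (12.7% to 16.1%) and 3.72% in EC-iCD45KO. T/NK-marked barcodes had 3.72% in both, and the EC-iCD45KO Chil3-set cells were no higher than that. Before thinning, the 10 richest WT cells held 33.4% of the 3423 UMIs of the 13 genes, the median cell held 6 and 24 of 224 cells held 0. In EC-iCD45KO the 10 richest held 22.5% of 2481 UMIs, the median cell held 2 and 142 of 581 held 0.

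**Figure D4:**
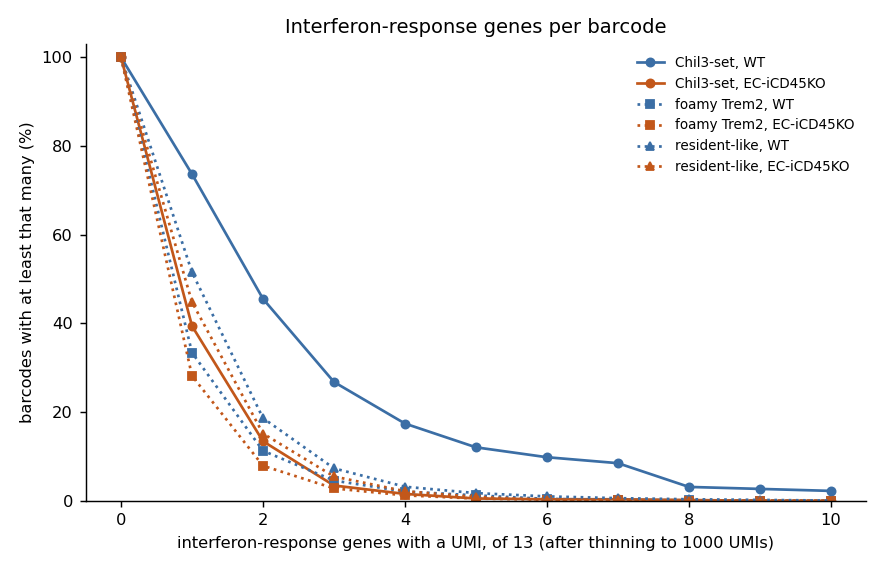
Share of barcodes (y axis, percent) with at least the given number of the 13 interferon-response genes (x axis) after thinning to 1000 UMIs, for Chil3-set (solid lines), foamy Trem2 and resident-like (dotted lines) barcodes of each library. At 3 or more genes the line of WT Chil3-set cells stands at 26.8%, against at most 7.32% for the other 5 lines plotted, and endothelial-marked barcodes, with 14.3% in WT, are not plotted.

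Ly6i, a gene of the rule, was itself far higher in WT, at 314 CPM against 67.0, so the rule could have drawn different cells from the libraries. In cells without a Ly6i UMI, 3 or more interferon genes were found in 18.6% of 113 WT and 3.18% of 440 EC-iCD45KO cells. With a Ly6i UMI the shares were 35.1% of 111 and 4.26% of 141. When Ly6i was dropped from the rule, 152 WT and 488 EC-iCD45KO cells met it, and Isg15 stood at 1004 against 170 CPM. When at least 7 of the 9 macrophage genes were required, 58 and 198 cells remained and the list's median was -1.38. The interferon difference had the same direction under each of these. Whether the rule drew different cells from the libraries was not tested.

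Ifi202b, an interferon-inducible gene outside the list, had 123 UMIs in WT Chil3-set cells and 1 in EC-iCD45KO. It was near 0 in each EC-iCD45KO class, at 0.0514 CPM in other gated barcodes against 21.6 in WT and with 0 UMIs in resident-like barcodes. The difference in Ifi202b was thus not particular to the Chil3-set cells, and its cause was not tested. Ifi44 was at 226 and 3.03 CPM, a log2 ratio of -6.22 (-7.30 to -5.32). Ccl5, a chemokine gene outside the list, was at 257 and 10.3 CPM, a log2 ratio of -4.64 (-5.20 to -4.12). T/NK cell markers in the Chil3-set cells summed to 294 CPM in WT and 25.2 in EC-iCD45KO. How far Ccl5 went with them was not tested. Cxcl10, a chemokine that interferons induce, was at 469.6 and 119.8 CPM, a log2 ratio of -1.97 (-2.17 to -1.77), with 0.01 in foamy Trem2 barcodes.

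The monocyte genes went both ways between the libraries. In Chil3-set cells 9 of the 14 were higher in EC-iCD45KO and 5 lower, with a median log2 ratio of 0.17, where the median of all genes was -0.026. The list median was 0.36 in foamy Trem2 and 0.12 in resident-like barcodes. Of the 14, 4 were at least 2-fold lower in EC-iCD45KO Chil3-set cells (among them Ly6c2, Plac8 and Ms4a4c) and 1, Fn1, at least 2-fold higher, where 3.21% of all genes were lower and 2.3% higher. Plac8 was under 2-fold, at -0.62, when 7 of the 9 macrophage genes were required. Ly6c2 had a log2 ratio of -1.63 (-1.77 to -1.5), but also -1.96 in foamy Trem2 and -1.75 in resident-like barcodes. Ms4a4c was at 713 and 214 CPM, a log2 ratio of -1.74 (-1.89 to -1.59), with smaller ratios of -0.98 and -0.42 in the other classes. Ccr2 did not follow, with 0.35 (0.16 to 0.54). The 3 Ly6 family genes past 2-fold, of 5 that passed the minimum, were Ly6a, Ly6c2 and Ly6d. All 3 were lower in EC-iCD45KO, beside the same shares of all genes. Ly6a was at 639.9 and 277 CPM, with a ratio of -0.96 without Ly6i in the rule. B and plasma cell markers were lower too, at 747 CPM in WT and 166 in EC-iCD45KO, and their part in the Ly6d ratio was not tested. Some Ly6 family genes, such as Ly6c1 and Ly6c2, are near-identical copies. How reads that fit both were counted is not given in the sources used here.

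Fn1 and Spp1, which encode secreted glycoproteins of the matrix, were higher in EC-iCD45KO Chil3-set cells. Fn1, fibronectin, was at 368 CPM in WT and 1124 in EC-iCD45KO. Its log2 ratio was 1.61 (1.46 to 1.77), with 0.46 in foamy Trem2 barcodes and 0.81, under 2-fold, in Chil3-set cells found after thinning. Spp1 was at 2358 and 6035 CPM, a log2 ratio of 1.36 (1.29 to 1.42), with 0.35 in foamy Trem2 barcodes, where its level was highest. Pf4, platelet factor 4, which some macrophages make, was at 102 and 290.3 CPM, and Ccl6 had 1.17 (1.04 to 1.30), or 0.82 without barcodes marked for other cell types. Ccl24, the eosinophil attractant eotaxin-2, was at 5.01 and 48.8 CPM, and its direction turned when 7 of the 9 macrophage genes were required. In all, 4 of 14 chemokine genes were at least 2-fold higher (Ccl6, Ccl24, Cxcl1 and Pf4) and 3 lower (Ccl5, Cxcl9 and Cxcl10), where 2.3% and 3.21% of all genes were. Cxcl1 came to 0.95 in cells found after thinning.

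The genes of glycolysis, arginine use, inflammation, receptors, MHC class II and transcription factors had 0 past 2-fold either way between the libraries. This counts genes that passed the 20 CPM minimum. Of all genes 2.3% were higher and 3.21% lower, so 0 in such short lists lies near those shares. Il1b had 0.31 (0.21 to 0.41), Cebpb 0.02 (-0.06 to 0.11), Hif1a 0.36 (0.18 to 0.55) and Ass1 -0.45 (-0.69 to -0.20). Chil1, of the same chitinase-like family as Chil3, was at 6.01 and 62.2 CPM. It was at 8.78 and 149 in other gated barcodes, so the library difference was as large there.

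Most of the 10 genes furthest above WT in EC-iCD45KO were genes of smooth muscle and fibroblasts. Acta2, smooth muscle actin, was at 108 and 899.9 CPM, a log2 ratio of 3.06 (2.78 to 3.35), and Tagln, Myh11, Myl9, Tpm2 and Cald1 went with it at 3.05, 3.10, 2.74, 2.89 and 2.01. Col3a1, Mmp3 and Cxcl14 had 2.42, 3.24 and 2.89. In other gated barcodes Acta2 was higher still, at 519 and 1176 CPM. Of the 5 smooth muscle markers 0 were at 0, their sum was 218 CPM in WT and 1804 in EC-iCD45KO, and 4.91% of the WT and 23.9% of the EC-iCD45KO cells held 2 or more of them. Without barcodes that held 2 or more markers of another cell type the ratio of Acta2 was 0.67, that of Tagln 1.06, that of Cald1 0.08 and that of Myh11 0.12, while the interferon median was -2.35, Spp1 1.43 and Fn1 1.15.

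Markers of lymphocytes moved the other way. The 7 B and plasma cell markers summed to 747 CPM in WT and 166 in EC-iCD45KO Chil3-set cells, with 31.7% and 3.44% of cells holding 2 or more, and the 10 T/NK markers to 294 and 25.2 CPM. Both were also lower in the other gated barcodes of EC-iCD45KO, at 259 against 4126 CPM for the B and plasma cell markers. Cd79a and Bank1, genes of B cells, had log2 ratios of -5.23 and -4.39. Ighg3, an immunoglobulin heavy chain, had 494 UMIs in WT, 97.8% of them in 1 cell, and 0 in EC-iCD45KO, which makes WT at least 544-fold higher against a floor of 3 UMIs over the group. Neutrophil markers were found at 2 or more in 9.82% and 13.4% of the Chil3-set cells. Igha, an immunoglobulin heavy chain of plasma cells, was higher in EC-iCD45KO at 43.1 and 171 CPM, and 77.1% of its UMIs there lay in 1 cell. The haemoglobin genes Hbb-bs, Hba-a1 and Hba-a2 stood higher in WT, where 1 cell held 99.1% of the 4449 haemoglobin UMIs. How much RNA of other cells adds to single ratios beyond the values given was not tested.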

How the data were processed

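Aortic cells of 1 WT and 1 EC-iCD45KO library were profiled with 10x Genomics droplet RNA sequencing. The authors deposited filtered matrices of raw UMI counts per gene and barcode, made with Cell Ranger 7.1.0 per the file headers and on the mm10 build per the submitters' processing notes. How reads in overlapping genes were counted is not given in the sources used here.

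From these counts, barcodes with at least 1000 UMIs and at most 10% mitochondrial UMIs were kept, and the Chil3-set, foamy Trem2 and resident-like classes were taken by the same counting rule. No doublet caller was run, and barcodes with 2 or more markers of another cell type were left out as an alternative instead. Counts were summed per class and library and scaled to CPM, with no replicates and thus no test. A gene counted as higher or lower at a ratio of 2-fold or more among genes of at least 20 CPM on average, with the 27 genes of the rule left out. List medians used genes of at least 5 CPM. Intervals are 95% intervals, exact Poisson for levels, exact conditional binomial for ratios, Clopper-Pearson for shares and Newcombe for differences of shares. Where a group held 0 UMIs the floor was 3 UMIs over the group. To compare shares of barcodes across depths, barcodes were thinned at random to 1000 UMIs, and all 224 WT and 581 EC-iCD45KO Chil3-set cells took part.

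The genes named were the 12 furthest above and the 12 furthest below other gated barcodes, by the smaller of the 2 libraries' ratios, and the 10 each way between the libraries, among genes of at least 50 CPM, with the genes of the rule, of 18 gene lists and 20 marker lists, and Ptprc. Some genes of the rule and of the lists are not reported here. The members and the lists were chosen with earlier results of these data known. The interval for ratios was tested on simulated data. Gene positions came from GENCODE M21 (GRCm38), which matched 32235 of 32285 identifiers, and upstream letters from a RefSeq promoter table (GRCm38.p6) that holds 3 of the 6 genes of the Chil3 set. The tools were Python 3.11.15 with pandas 2.3.3, matplotlib 3.10.9, scipy 1.17.1 and numpy 2.4.6, and edgeR 4.0.16 under R 4.3.3 for TMM scaling as an alternative. Other alternatives changed the UMI, mitochondrial and CPM minimums, the rule, the scaling and the barcodes included. Levels in Chil3-set cells rest on 998618 UMIs in WT and 3297042 in EC-iCD45KO, so the precision is lower in WT.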

Additional observations from a re-analysis of the deposited data

Results flagged for a closer look

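In 4 genes the EC-iCD45KO over WT ratio in Chil3-set cells had the opposite sign to that in other gated barcodes, and the differences were not tested. Igha had a log2 ratio of 1.99 in Chil3-set cells and -2.30 in other gated barcodes, and -0.07 when the richest cell of each library was left out. The haemoglobin genes had -4.83 against 0.16 for Hba-a2, -4.67 against 0.06 for Hbb-bs and -4.57 against 0.21 for Hba-a1, and 1 WT cell held 4407 of the 4449 haemoglobin UMIs of the WT Chil3-set cells.

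Barcodes of 500 or more but under 1000 UMIs, which the analysis left out, also held cells that met the rule. They were 0.515% of those gated in EC-iCD45KO (33 of 6411) and 0.204% in WT (7 of 3430), the same order of the libraries as in the deeper barcodes.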

How the results depend on the processing

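No paired analysis was possible because the study has a single WT and a single EC-iCD45KO library. The depth of the WT Chil3-set cells, 998618 UMIs, limits ratios of genes under about 20 CPM. List medians here are the mean of both libraries' medians against other gated barcodes unless stated. The 5% mitochondrial maximum, TMM scaling, and scaling without mitochondrial, ribosomal protein and haemoglobin genes moved none of the counts, shares and list medians beyond their limits. For the values below the cause was not tested, other than for the CPM minimums, which change the number of genes compared.

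The share of Chil3-set cells was 1.68% in WT and 3.95% in EC-iCD45KO, with a difference of 2.26 points. It became 2.97%, 5.82% and 2.85 points at 2000 UMIs, 0.467%, 1.08% and 0.615 points with the rule after thinning, and 0.586%, 1.84% and 1.25 points with 3 genes of the set. Without barcodes marked for other cell types it was 4.43%, 5.74% and 1.31 points. Of the alternatives chosen after seeing the data, the rule without Ly6i gave 1.14% and 3.31%, and at least 7 of 9 macrophage genes gave 1.15%, 2.32% and 1.17 points.

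The 131 genes higher than other gated barcodes became 87 at 50 CPM and 290 with no minimum. The 163 lower genes became 59 and 1087 at these minimums, 250 with 3 genes of the set, 277 with the mean of single-barcode CPM, and 108 with 7 of 9 macrophage genes. The 137 genes higher in EC-iCD45KO became 51 and 2379 at these minimums, 422 with the rule after thinning, and 220 with 7 of 9 macrophage genes. The 191 lower genes became 86, 1801 and, after thinning, 497.

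With the rule after thinning the medians were 1.62 for monocyte, -0.61 for Ly6 family, 0.51 for inflammatory, 0.31 for interferon, -1.10 for MHC class II, -0.28 for lipid and 0.35 for transcription factor genes. Those of early response genes, -0.032 from 0.18, and of proteases between the libraries, -0.18, turned sign. For the interferon genes the medians under the main rule were 2.04 in WT and 0.27 in EC-iCD45KO, so their mean hides unlike libraries. With 3 genes of the set Ly6 family had 0.19 and MHC class II -1.15. Without barcodes marked for other types Ly6 family had 0.38, inflammatory 0.55, chemokines 0.24, coagulation 1.09, MHC class II -0.93, lipid -0.90, resident -1.49 and transcription factors 0.31, and proteases turned to 0.44 from -0.86. Ly6 family had -0.59 without neutrophil-marked barcodes, -0.57 with mean CPM and 0.33 with no minimum, and early response 0.28 with mean CPM.

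Among the alternatives chosen after seeing the data, the rule without Ly6i gave medians of 0.93 for interferon and -1.01 for MHC class II genes. With 7 of 9 macrophage genes monocyte had 1.81, Ly6 family 0.65, chemokines 0.37, coagulation 0.95, interferon 0.91, MHC class II -0.48, early response 0.0034 and transcription factors 0.27, and the interferon median between the libraries was -1.38. Against foamy Trem2 and resident-like barcodes Ly6 family had 0.32, proteases -0.14 and early response 0.073.

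Single genes turned sign as follows. After thinning, the ratio between the libraries was 2.83 for Hbb-bs and 2.08 for Hba-a1. Without barcodes marked for other types it was -2.41 for Igha, and Chil1 against other gated barcodes in EC-iCD45KO was 2.12, and 0.053 against foamy Trem2 and resident-like barcodes. With 7 of 9 macrophage genes Igha had -2.23, Ccl24 -0.48 and Hba-a1 0.44, and Ctla2a against other gated barcodes in WT 0.15. Without the cell richest in haemoglobin in each library, also chosen after seeing the data, Hbb-bs had 1.67, Hba-a1 1.63 and Hba-a2 2.33.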

Other observations

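Markers of further cell types differed in how far they stood from the other gated barcodes. The 6 nonclassical monocyte markers summed to 362 CPM in WT and 311 in EC-iCD45KO, with 2 or more in 22.8% and 19.1% of cells, against 198 and 181 CPM in other gated barcodes. Osteoclast markers summed to 146 and 135 CPM against 247 and 166, peritoneal macrophage markers to 83.1 and 121 against 159 and 197, dendritic cell markers to 40.1 and 49.7 against 102 and 106, and alveolar macrophage markers in EC-iCD45KO to 31.8 against 17.2. Endothelial markers, those of the cells the beads select, summed to 240.3 and 223 CPM, below the other gated barcodes at 363 and 361. Fibroblast markers summed to 649 and 1427 CPM, below the other gated barcodes at 2101 and 2507. Against the same barcodes, erythroid markers summed to 4465 and 184 against 663 and 725. The WT sum rests on 1 cell, which held 4407 of the 4449 haemoglobin UMIs. Platelet markers summed to 32.0 and 8.80 against 2.51 and 3.89. Of the 4 platelet markers 3 were at 0 in WT and 2 in EC-iCD45KO, and 0 cells held 2 or more. Epithelial markers summed to 5.01 and 2.43 against 11.6 and 4.76. Of the neutrophil markers, which summed to 499.7 and 621 CPM against 153 and 429, 1 of 10 was at 0 in each library.

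Of 13 cell cycle genes listed, 12 had a level that could be compared in each library and all 12 were lower in the Chil3-set cells than in other gated barcodes, where 5999 of 10410 genes were lower in WT and 5897 of 10209 in EC-iCD45KO. Their medians were -1.91 and -1.10, though Mki67 alone passed the 20 CPM minimum. Of 4 Ly6 family genes that passed it, Ly6c2 alone was at least 2-fold higher in both libraries, as were 2.27% of all genes. Of the chitinase-like genes outside the rule 0 passed the minimum. Among 7 proteases and inhibitors 3 were at least 2-fold higher in EC-iCD45KO than in WT Chil3-set cells, 1 of them Mmp3 at 24.0 and 227 CPM, and 0 lower, where 2.3% of all genes were higher and 3.21% lower. For 1 gene each of the coagulation (of 6), lipid (of 14) and IL-4 (of 4) lists EC-iCD45KO was at least 2-fold higher as well, for 2 of the 5 resident genes, and for 0 lower in any of these lists.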
